A study of Mus musculus with 10 samples.

Results

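The S100 proteins are small calcium-binding proteins, and 10 of their genes were followed here in lung RNA of mice fed the FO or the CO diet: S100a8, S100a9, S100a1, S100a4, S100a6, S100a10, S100a11, S100a13, S100a16 and S100g. They were chosen by gene symbol, and all 10 were found among the 24059 symbols of the count table. S100a8 and S100a9 had been picked because they differed between the diets in these same mice, so their diet difference is described without a test, and the other 8 members stand beside them as the rest of the family. The samples were whole lungs, flushed with PBS, from female C57Bl/6 mice aged 14 weeks, with 5 mice per diet and 1 library per mouse. The FO mice had received a high-fat diet rich in n-3 PUFAs from menhaden fish oil for 8 weeks, and the CO mice a high-fat diet rich in saturated fat from coconut oil for the same time. Corn oil was part of both diets, olive oil was part of the CO diet, and all mice underwent pulmonary function testing before the lungs were taken. There was no group on a low-fat diet, so each difference is between these 2 high-fat diets.

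S100 proteins carry a pair of EF-hand loops that bind calcium, and most of them work as dimers that change shape on binding calcium and then attach to partner proteins. S100a8 and S100a9 together form calprotectin, a very abundant protein of the neutrophil cytosol that is also made by some monocytes, binds zinc and manganese and, outside the cell, can act on the receptors Tlr4 and Ager. Other members are expressed more widely, in epithelium, endothelium, fibroblasts and muscle. In whole lung the level of a neutrophil gene depends on the number of neutrophils in the tissue and vessels as well as on the RNA in each of them, and in these bulk samples the number of cells and the RNA per cell cannot be told apart.

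Gene counts summed to 229766 in the smallest library and 1124963 in the largest, and from 21.8% to 87.0% of them lay on Rn45s, the ribosomal RNA precursor. Values are therefore given as counts and as CPM, counts relative to the TMM-scaled library size. A floor of 3 counts corresponded to 2.29 CPM in FO mouse 2 and to 19.9 CPM in CO mouse 1, so the lowest values of the small libraries are the least precise. FO mouse 2 and CO mouse 5 stood apart with Malat1 at 8.53% and 6.15% of the counts outside Rn45s, and the S100a8 and S100a9 differences are also given without them. CO mouse 4 stood apart in another way, with the lowest Rn45s share (21.8%, against 51.7% or more in the others) and a TMM factor of 3.21, against at most 1.596 in the others. Of 8 markers of lung epithelium, 7 had counts in these libraries, and Sftpc, a surfactant gene of alveolar type 2 cells, was the most abundant of them with 6497 counts over the 10 mice. The 10 members together had between 128 and 894 counts per mouse.

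Of the 10 members, 9 lie on chromosome 3 of the GRCm38 genome and S100g lies on the X chromosome from 162961992 to 162964599. A cluster of 7 genes runs from 90511034 to 90695721 on chromosome 3. S100a8, from 90669071 to 90670034 on the plus strand, and S100a9, from 90692630 to 90695721 on the minus strand, close this cluster with 22595 bases between them. S100a11 (93520496 to 93526288) and S100a10 (93555117 to 93564645) form a separate pair on the same chromosome. S100a1 and S100a13 are read from opposite strands and their annotated spans share 98 bases, and the span of S100g overlaps that of Ctps2, so reads in the shared parts could have gone to either gene or to none. S100a11 has an annotated pseudogene, S100a11-ps, and reads common to both could be lost or shared.

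Promoter sequences from RefSeq (GRCm38.p6) were found for 9 of the 10 members, S100a10 being the exception. They are shown for S100a8 and S100a9, the neutrophil pair, and for S100a11, the member with the most negative log2 fold change (FO minus CO). The windows run from 250 bases before the annotated start to 20 bases after it. Capitals mark matches, on either strand, to TATAAA (the TATA box), TTGCNNAA (a C/EBP site), GAGGAA (an Ets site of the kind bound by PU.1, read as TTCCTC on the other strand) and TGANTCA (an AP-1 site).
S100a8, chr3:90668821-90669090, plus strand: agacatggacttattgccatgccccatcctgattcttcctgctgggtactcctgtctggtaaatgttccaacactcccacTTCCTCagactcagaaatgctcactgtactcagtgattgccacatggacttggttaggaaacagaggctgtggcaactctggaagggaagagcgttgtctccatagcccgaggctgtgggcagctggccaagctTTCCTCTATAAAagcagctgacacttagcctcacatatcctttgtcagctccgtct
S100a9, chr3:90695702-90695971, minus strand: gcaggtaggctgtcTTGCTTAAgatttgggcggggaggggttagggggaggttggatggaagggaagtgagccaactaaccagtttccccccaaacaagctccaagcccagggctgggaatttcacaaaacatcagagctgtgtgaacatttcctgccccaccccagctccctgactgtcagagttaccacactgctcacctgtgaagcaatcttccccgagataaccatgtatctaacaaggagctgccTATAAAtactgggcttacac
S100a11, chr3:93520246-93520515, plus strand: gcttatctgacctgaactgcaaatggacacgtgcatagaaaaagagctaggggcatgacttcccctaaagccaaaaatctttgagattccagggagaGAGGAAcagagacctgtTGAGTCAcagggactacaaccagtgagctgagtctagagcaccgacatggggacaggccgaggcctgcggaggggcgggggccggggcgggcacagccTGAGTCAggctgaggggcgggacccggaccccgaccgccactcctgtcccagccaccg

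In S100a8 the TATAAA lay 30 to 25 bases before the start, directly after a GAGGAA match on the other strand, and another GAGGAA match lay 170 to 165 bases before it. In S100a9 the TATAAA occupied bases 1 to 6 after the annotated start, and a TTGCNNAA match lay 236 to 229 bases before it. The S100a11 window held no TATAAA but a GAGGAA match and 2 TGANTCA matches, the nearer one 38 to 32 bases before the start. Over the members with a window, TATAAA was found in 4 of 9 (S100a8, S100a9, S100a4 and S100g), GAGGAA in 3, TTGCNNAA in 2 and TGANTCA in 2. A member was counted if any of its windows held a match, and S100a16 had 2 windows, while the shares that follow are per window. Among all 32851 promoter windows of this length, 12.9% held TATAAA, 10.1% TTGCNNAA, 25.1% GAGGAA and 7.23% TGANTCA. These are matches of letters, and binding was not measured.

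S100a9 had 138, 30, 12, 34 and 22 counts in FO mice 1 to 5 and 2, 1, 8, 14 and 14 counts in CO mice 1 to 5. On the CPM scale these were 158.8, 22.9, 77.4, 42.0 and 72.0 in the FO mice and 13.3, 5.33, 17.5, 14.7 and 18.4 in the CO mice. No CO mouse reached the lowest FO mouse, and the nearest pair across the diets was FO mouse 2 with 22.9 CPM and CO mouse 5 with 18.4 CPM, which are the libraries with the high Malat1 shares. Of the 2438 genes that passed the filter on low counts, 0.41% had diets that did not overlap, 0.205% with FO higher, and since S100a9 was picked for this pattern nothing is read from it. The mean was 74.6 ± 52.1 CPM under FO and 13.8 ± 5.19 CPM under CO (SD, n = 5), a fitted log2 fold change of 2.27 (standard error 0.48). This was the highest log2 fold change among the 2438 genes, a rank given as a description because S100a9 was picked for this difference.

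S100a8 had 96, 27, 6, 22 and 24 counts in FO mice 1 to 5 and 2, 6, 9, 15 and 11 counts in CO mice 1 to 5. The corresponding levels were 110.5, 20.6, 38.7, 27.2 and 78.6 CPM in the FO mice and 13.3, 32.0, 19.7, 15.7 and 14.4 CPM in the CO mice. Here the diets overlapped, because CO mouse 2, at 6 counts, lay above FO mice 2 and 4. Among the 14161 genes with any count, 0.346% did not overlap, 0.233% with FO higher. The group means were 55.1 ± 38.3 CPM for FO and 19.0 ± 7.62 CPM for CO (SD, n = 5). S100a8 did not pass the filter on low counts, and when edgeR was fitted to every gene with a count its log2 fold change was 1.62 (standard error 0.38), against 2.27 (standard error 0.37) for S100a9 in that fit. Among the 3455 genes with at least 100 counts over all mice, S100a9 ranked 1 and S100a8 ranked 4 by this log2 fold change. Both ranks come from the difference the pair was picked for, so nothing is read from them.

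FO mouse 1 carried much of both genes, with 138 of the 236 S100a9 counts and 96 of the 175 S100a8 counts of its group. Without it the log2 fold change was 1.65 for S100a9 and 1.06 for S100a8. Without FO mouse 2 and CO mouse 5 it was 2.68 for S100a9 and 1.85 for S100a8. The spread between FO mice was wide for both, with a coefficient of variation of 69.7% for S100a9 and 69.4% for S100a8, while the members other than these had coefficients of variation between 20.5% and 41.7% under FO.

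**Figure D1:**
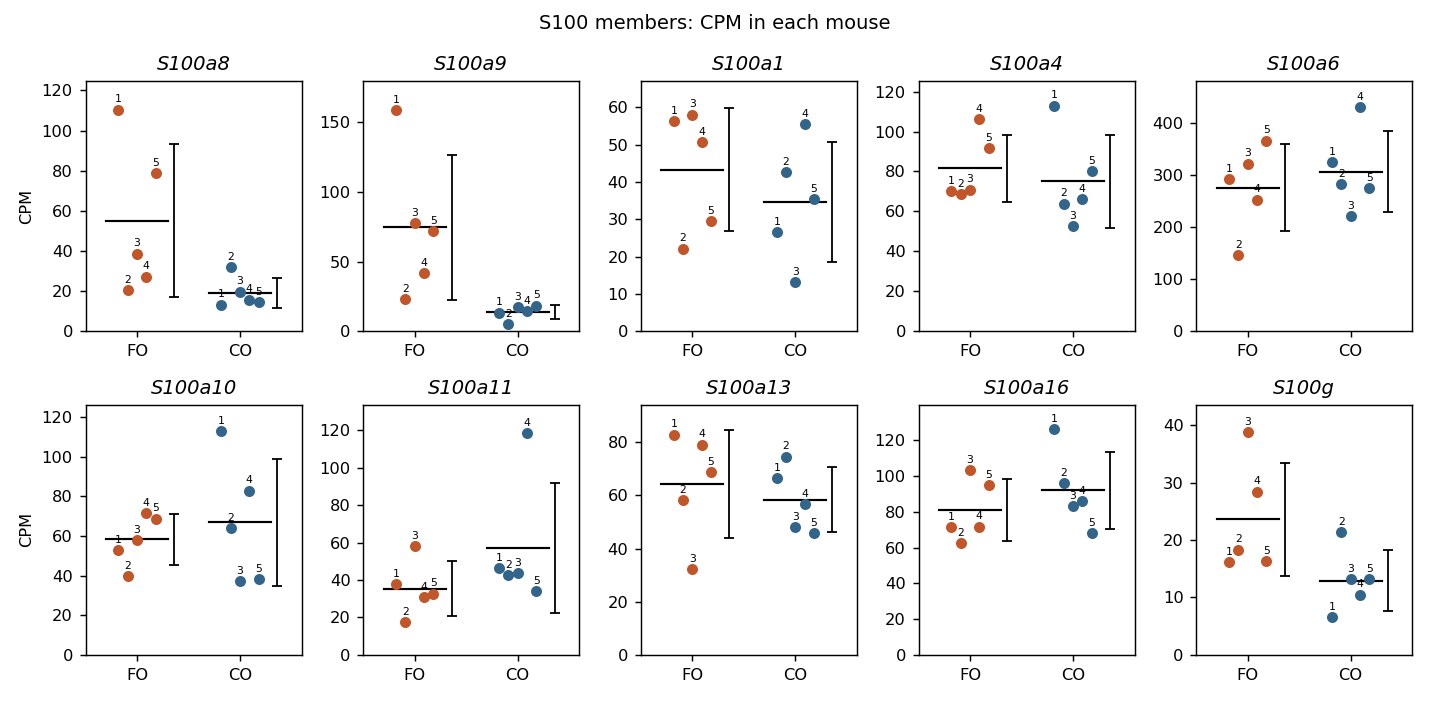
CPM of each S100 member (y axis, linear, starting at 0, with its own range in each panel) in the 5 FO and 5 CO mice; points are mice labelled by number, horizontal lines are means and the bars beside them are the SD. FO mouse 1 is highest for S100a8 and S100a9, and CO mouse 4 stands alone at 118.6 CPM for S100a11.

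A share within a mouse does not depend on how libraries are scaled. S100a8 and S100a9 together made up 28.4%, 9.13%, 13.5%, 9.09% and 16.4% of the S100 counts of FO mice 1 to 5. In CO mice 1 to 5 they made up 3.13%, 5.15%, 6.77%, 3.24% and 5.26%. The lowest FO mouse, at 9.09% (95% exact Clopper-Pearson interval 6.94% to 11.6%), lay above the highest CO mouse, at 6.77% (3.99% to 10.6%), although these intervals, which cover counting error only, overlapped. The pair was picked for its diet difference, so nothing is read from this separation. The mean share was 15.3% ± 7.93 under FO and 4.71% ± 1.53 under CO (SD, n = 5). Without FO mouse 1 the difference fell from 10.6 to 7.32 percentage points.

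Within the pair, S100a9 gave 59.0%, 52.6%, 66.7%, 60.7% and 47.8% of the S100a8 plus S100a9 counts in FO mice 1 to 5. The shares in CO mice 1 to 5 were 50.0%, 14.3%, 47.1%, 48.3% and 56.0%. CO mouse 2 was the low value, and it rested on 7 counts, with an interval from 0.361% to 57.9%. The mean share was 57.4% ± 7.31 for FO and 43.1% ± 16.5 for CO (SD, n = 5), and the diets overlapped. Since both genes were picked for their diet difference, this ratio is given without a test.

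**Figure D2:**
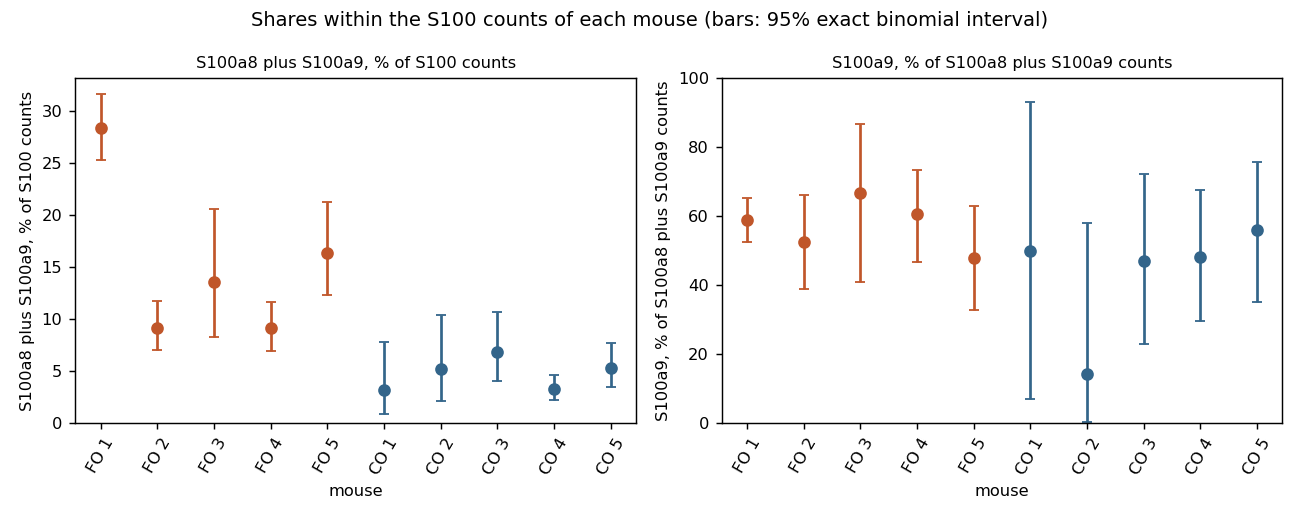
Left, S100a8 plus S100a9 as a percentage of the counts of all 10 members; right, S100a9 as a percentage of the S100a8 plus S100a9 counts, for each mouse (x axis), with FO mice in orange and CO mice in blue and bars giving the 95% exact binomial interval. On the left all FO mice lie above all CO mice, but the pair was picked for its diet difference. On the right the diets overlap and CO mouse 2 is low at 14.3%.

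Among the rest of the family no member was called higher in FO mice and 1 was called lower. Of the 8 other members, 7 passed the filter, and S100a11 alone had an unadjusted p under 0.05 in edgeR's quasi-likelihood test. The same threshold called 2.91% of all 2438 genes, with 1.68% higher under FO and 1.23% lower. Of these 7, 3 had a positive and 4 a negative log2 fold change, with a median of -0.15, beside a median of 0.00 over all 2438 genes. After Benjamini-Hochberg adjustment none of these 7 passed 0.05. Among genes with any count, where 4.15% were called and 1.57% were called lower, S100a11 was again the call among these 8.

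S100a11, whose protein binds annexin A1 and takes part in membrane repair and keratinocyte growth, had a lower mean under FO. Its level was 38.0, 17.6, 58.1, 30.9 and 32.7 CPM in FO mice 1 to 5 and 46.5, 42.6, 43.8, 118.6 and 34.1 CPM in CO mice 1 to 5. The diets overlapped, since FO mouse 3, with 9 counts, lay above all CO mice except CO mouse 4. The means were 35.4 ± 14.7 CPM for FO and 57.1 ± 34.7 CPM for CO (SD, n = 5), with -0.90 as log2 fold change (standard error 0.38, edgeR unadjusted p = 0.030, adjusted p = 0.998). Of the 174 counts under CO, 113 were from CO mouse 4, the library with the low Rn45s share, and leaving that mouse out gave -0.32 (edgeR unadjusted p = 0.381). Leaving out FO mouse 2 gave -0.70 (edgeR unadjusted p = 0.077), and leaving out FO mouse 4 gave -0.90, as with all mice, at an edgeR unadjusted p of 0.052. S100a11 is among the genes the study had listed from these mice, so its p is not independent of that choice.

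S100a6, or calcyclin, which binds Cacybp and several annexins, was the most abundant member. It had 292.3, 146.0, 322.6, 253.2 and 366.7 CPM in FO mice 1 to 5 and 325.6, 282.3, 221.3, 431.5 and 275.6 CPM in CO mice 1 to 5. The means of 276.2 ± 83.8 CPM (FO) and 307.3 ± 78.7 CPM (CO) differed by less than the spread between mice, with a log2 fold change of -0.18 (95% interval -0.71 to 0.36). S100a4, a protein of fibroblasts and immune cells that binds non-muscle myosin, had 81.6 ± 16.7 CPM under FO and 75.1 ± 23.3 CPM under CO (SD, n = 5), a log2 fold change of 0.17 (interval -0.37 to 0.70). These intervals leave out a change as large as that fitted for S100a8, but they include smaller changes in both directions.

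S100a10, which no longer binds calcium and forms a complex with annexin A2 at the membrane, had 58.2 ± 12.9 CPM under FO and 67.0 ± 32.0 CPM under CO, with the lowest value of 37.2 and the highest of 113.0 CPM both in CO mice. Its log2 fold change was -0.15 (interval -0.82 to 0.52). S100a16, a widely expressed member, had 80.8 ± 17.4 CPM (FO) and 91.9 ± 21.6 CPM (CO), a log2 fold change of -0.19 (interval -0.70 to 0.32). In neither gene did the diets separate.

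S100a1, best known for its action on calcium handling in heart muscle, had 43.3 ± 16.4 CPM under FO and 34.7 ± 16.1 CPM under CO, a log2 fold change of 0.22 (interval -0.56 to 1.01). S100a13, which takes part in the release of Fgf1 from cells, had 64.2 ± 20.3 CPM (FO) and 58.4 ± 12.1 CPM (CO), a log2 fold change of 0.25 (interval -0.31 to 0.81). The edgeR unadjusted p of the 6 members tested other than S100a9 and S100a11 lay between 0.361 and 0.652. S100g, a vitamin D-dependent calcium carrier known from the intestine, did not pass the filter. It had 14, 24, 6, 23 and 5 counts in FO mice 1 to 5 and 1, 4, 6, 10 and 10 in CO mice 1 to 5, or 23.6 ± 9.84 and 12.9 ± 5.38 CPM (SD, n = 5). Its log2 fold change in the fit of genes with any count was 0.80 (interval -0.11 to 1.70, edgeR unadjusted p = 0.085, adjusted p = 0.905), and the diets overlapped through CO mouse 2.

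**Figure D3:**
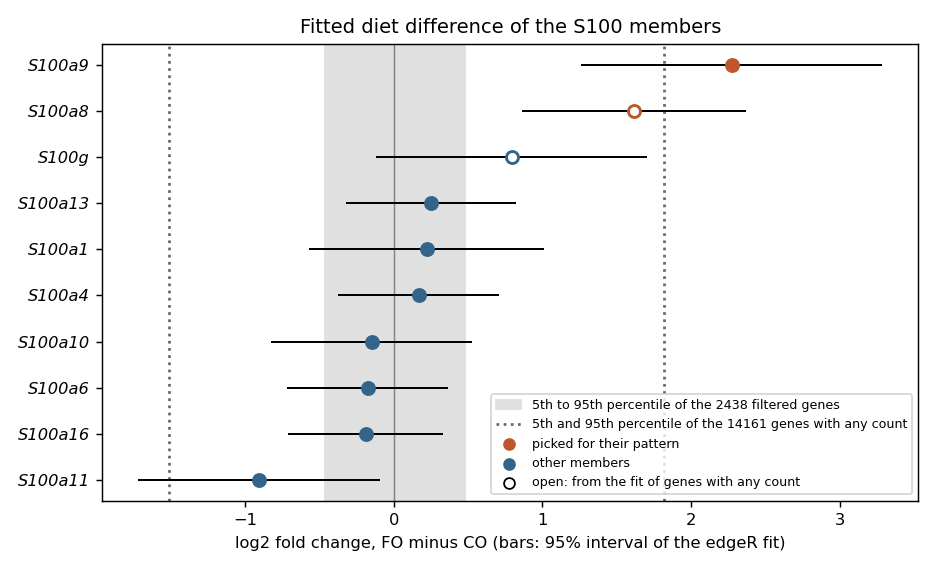
Log2 fold change (FO minus CO) of each S100 member with its 95% interval from the edgeR fit; open points are from the edgeR run on every gene with a count, the grey band spans the 5th to the 95th percentile of the 2438 genes that passed the filter (-0.46 to 0.48), and dotted lines give the same percentiles of the 14161 genes with any count (-1.51 and 1.82). Of the filled points, S100a9 (2.27, picked for this pattern) lies above the band and S100a11 (-0.90) below it, and the open points, S100a8 (1.62, also picked) and S100g (0.80), lie between the dotted lines. The intervals of S100a8 and S100a9 are drawn as a description and are not read as a test, because both were picked for this difference.

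Scaling by library size alone, without TMM, moved the median log2 fold change of all genes to -0.55 and turned the split of calls from 41 higher and 30 lower to 1 higher and 35 lower. Under it S100a1, S100a4 and S100a13 changed sign to -0.60, -0.40 and -0.28, close to or above that median, and S100a9 went from 2.27 to 1.72 and S100a8 from 1.62 to 1.24.

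Levels were compared between members per kb of transcript, on the CPM per kb scale. S100a6 ranked 1 in all 10 mice, with 377.8 ± 114.6 CPM per kb under FO and 420.3 ± 107.7 under CO. S100a4 followed with 163.8 ± 33.5 (FO) and 150.9 ± 46.8 (CO) CPM per kb and held rank 2 to 4 in every mouse. Over the mice S100a9 held ranks from 2 to 10 and S100a8 from 3 to 10. S100a9 had 143.8 ± 100.3 CPM per kb under FO and 26.7 ± 9.996 under CO, and S100a8 had 113.4 ± 78.7 and 39.2 ± 15.7. S100a10, S100a11, S100a13 and S100a16 had group means between 69.4 and 111.8 CPM per kb, and their ranges over mice overlapped so far that their order is not resolved. S100a1 had 64.0 ± 24.3 (FO) and 51.2 ± 23.7 (CO) CPM per kb. S100g was never above rank 8.

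Of 8 other S100 symbols looked up, 7 matched the table, 3 of these (S100a2, S100a5 and S100a7a) were at 0 in every mouse, and none passed the filter. Only S100a14, an epithelial member, reached 10 counts in any mouse, with 17 counts under FO and 21 under CO. S100b, a glial member, had 12 counts in all.

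Other genes of neutrophils were read from a list of 38, which holds no S100 gene. Of these, 36 matched the table, 28 had any count and 2 passed the filter, Hp and Hdc, neither of them called. In the fit of genes with any count 4 of 28 were called, all higher under FO: Retnlg, a resistin-like protein of neutrophils, Mmp8, the neutrophil collagenase, and the granule genes Ngp and Camp. In that fit 2.58% of the 14161 genes were called higher. Over the list the log2 fold change had a median of 0.54, beside 0.05 over all genes. It was positive for 22 of the 28, beside 54% of the 14161 genes. The 4 calls rest on few reads. Retnlg and Mmp8 are also among the genes the study had listed from these mice, so their p-values are not independent of that choice. Retnlg had 16, 0, 2, 4 and 4 counts in FO mice 1 to 5 and 0, 1, 0, 1 and 3 in CO mice 1 to 5 (log2 fold change 2.00, edgeR unadjusted p = 0.013, adjusted p = 0.905). Mmp8 had 7, 0, 2, 3 and 1 counts against 0, 0, 0, 0 and 1 (unadjusted p = 0.012). Ngp had 5 counts under FO and Camp 4, and both had 0 under CO, where a count of 0 allows 3 counts per mouse, so no fold is given. On the CPM scale Retnlg was highest in FO mouse 1 (18.4 CPM), as S100a8 and S100a9 were, and Mmp8 was highest in FO mouse 3 (12.9 CPM, 2 counts). Without FO mouse 1 none of these 4 was called: Retnlg was at 1.31 (edgeR unadjusted p = 0.184), and the edgeR unadjusted p was 0.060 for Mmp8, 0.059 for Ngp and 0.098 for Camp. Without CO mouse 4 Retnlg and Mmp8 were still called, while Ngp (edgeR unadjusted p = 0.073) and Camp (edgeR unadjusted p = 0.080) were not. Ngp was also not called without FO mouse 2 or CO mouse 5, nor Camp without FO mouse 3, FO mouse 5, CO mouse 3 or CO mouse 5. Without both FO mouse 2 and CO mouse 5 Retnlg was at 3.17 and Ngp was not called (edgeR unadjusted p = 0.150). Mmp8 then had no counts in the CO mice left, so no fold is given for it. Over the whole list, without FO mouse 1 there was 1 call, Clec4e, without CO mouse 4 there were 3, and without any other single mouse there were from 4 to 6, of which 1 was lower under FO without CO mouse 3 and 2 were lower without CO mouse 5. DESeq2 on the same genes called 2, Retnlg and Mmp8.

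The more abundant genes of the list were not called. Hp, or haptoglobin, which lung epithelium also expresses, was the most abundant with 1040 counts and a log2 fold change of 0.13 (standard error 0.31). Among genes with any count the log2 fold change was 0.30 for G0s2, -0.22 for Msrb1 and 0.16 for Lrg1, and after the filter it was 0.61 for Hdc (standard error 0.44). Of 11 defining markers of neutrophils in the table, Elane and Mpo were at 0 in every mouse. Ltf, with 14 counts under FO and 16 under CO, had a log2 fold change of -0.47 among genes with any count. In that fit Mmp9 was at 0.21, Lcn2 at 0.41, Cxcr2 at 0.48 and Csf3r at 1.74, and none of them was called. The 11 summed to 49.5, 22.9, 90.3, 29.6 and 39.3 CPM in FO mice 1 to 5 and 13.3, 21.3, 15.3, 20.995 and 26.3 CPM in CO mice 1 to 5, so that CO mouse 5 lay above FO mouse 2 and the diets overlapped. The whole list summed to between 280.4 and 437.3 CPM under FO and between 195.3 and 372.9 CPM under CO.

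Markers of other blood cells were looked at beside the pair, since flushed lungs can keep blood. Of 7 red blood cell genes, 6 (the hemoglobin genes) were listed at 0 in every mouse, and Alas2, the erythroid enzyme of heme synthesis, was the remaining gene. Of the 8 lung epithelium markers 1 was also at 0 in every mouse. No absence of red cells is therefore read from the hemoglobin zeros, and why these symbols were at 0 was not tested. Alas2 ranged from 41.4 to 65.5 CPM under FO and from 2.10 to 76.7 CPM under CO, with 0.97 as log2 fold change (standard error 0.60, edgeR unadjusted p = 0.122) after the filter and 0.99 (unadjusted p = 0.0062, adjusted p = 0.905) among genes with any count. In the latter, Alas2 was at 0.58 without CO mouse 4 (edgeR unadjusted p = 0.112), 0.65 without CO mouse 5 (edgeR unadjusted p = 0.082), 0.67 without FO mouse 2 and CO mouse 5 (edgeR unadjusted p = 0.069) and 2.16 without CO mouse 3, and DESeq2 did not call it (unadjusted p = 0.331). The 4 platelet genes summed to between 22.9 and 58.9 CPM under FO and between 6.56 and 53.2 CPM under CO, and 1 of them, Gp9, with 6 counts against 0, was called, beside 2.58% of genes called higher. The Gp9 call ended without FO mouse 4 (edgeR unadjusted p = 0.051) and with DESeq2 (unadjusted p = 0.409). Of 10 monocyte and macrophage genes in the table, 9 had counts and 1, Cd68, was called, higher under FO with 18 counts against 3, again beside 2.58% of genes. The Cd68 call ended without FO mouse 1 (edgeR unadjusted p = 0.098), FO mouse 5 (0.058), CO mouse 1 (0.050) or CO mouse 5 (0.110), without FO mouse 2 and CO mouse 5 together (0.110) and with DESeq2 (0.088). Lyz2, the most abundant, had a log2 fold change of 0.38 (standard error 0.37, unadjusted p = 0.320). Of the 9 monocyte and macrophage genes with counts, 6 had a positive log2 fold change in the fit of genes with any count, with a median of 0.38. It was negative for Plac8 (-0.44, 145 counts), F13a1 (-0.48, 56 counts) and Chil3 (-0.17, 96 counts). Of 6 lymphocyte genes 0 were called by edgeR among genes with any count and 0 passed the filter. Their log2 fold change was positive for 0 of the 6, beside 54% of the 14161 genes, with a median of -1.06. Together they had 57 counts under FO and 78 under CO. The part of blood cells in the S100a8 and S100a9 values was not tested.

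**Figure D4:**
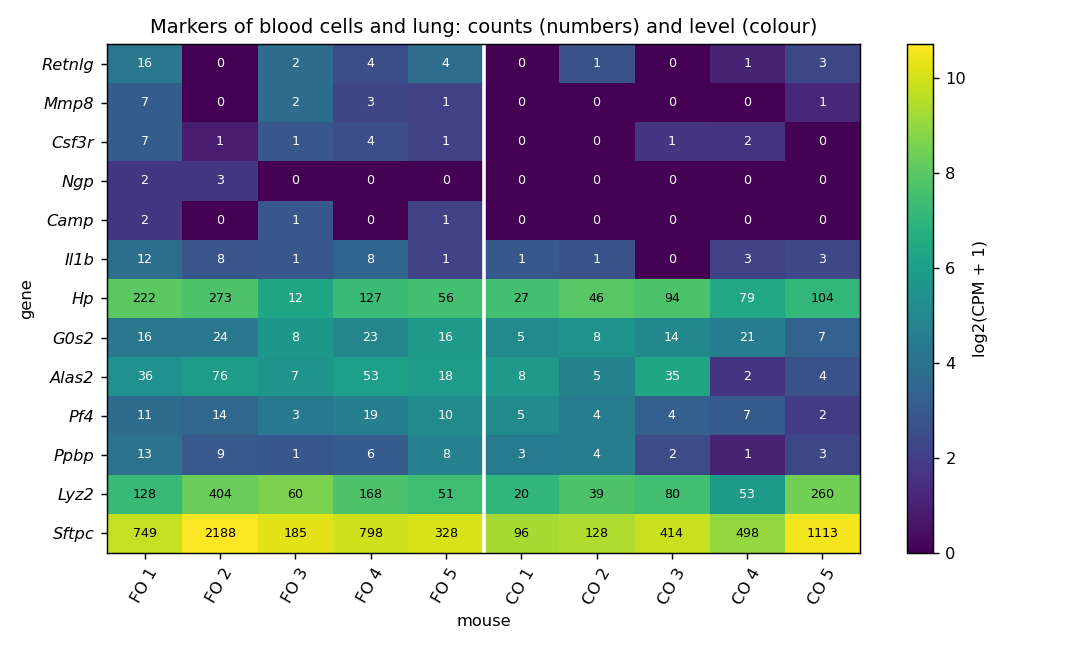
Counts (numbers) and level (colour, log2 of CPM plus 1) of markers of neutrophils (Retnlg to G0s2), red cells (Alas2), platelets (Pf4, Ppbp), macrophages (Lyz2) and alveolar type 2 cells (Sftpc) in each mouse. Mmp8, Csf3r, Ngp and Camp have at most 7 counts in any mouse, and by colour Retnlg is highest in FO mouse 1 (16 counts) and Mmp8 in FO mouse 3 (2 counts in a small library). The neutrophil markers Ltf, Mmp9, Lcn2 and Cxcr2 are not shown.

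Receptors and partners of S100 proteins were read from a list of 19 genes, of which 17 had counts and 11 passed the filter. Of the 11, 6 had a positive log2 fold change, the median was 0.01, and 1 was called, lower under FO, beside 1.23% of all genes called lower. This was Fgf1, the growth factor released together with S100a13, with 32.9 ± 9.13 CPM under FO against 57.3 ± 45.5 CPM under CO, and -0.91 as log2 fold change (standard error 0.39, edgeR unadjusted p = 0.030, adjusted p = 0.998). CO mouse 4 was the highest for Fgf1, with 136.5 CPM, as it was for S100a11. Among genes with any count, Fgf1 went from -0.89 to -0.17 without that mouse (edgeR unadjusted p = 0.652), and DESeq2 did not call it (unadjusted p = 0.053). The annexin A2 gene Anxa2, the partner of S100a10, had 216.7 ± 62.4 CPM under FO and a log2 fold change of 0.01 (standard error 0.25). Among the receptors of extracellular S100 proteins, Ager had a log2 fold change of -0.27 (standard error 0.34), the fatty acid and calprotectin receptor Cd36 one of -0.09 (standard error 0.34) and Bsg one of 0.11 (standard error 0.24). Tlr4 had 8 counts over all mice. Ahnak, a large scaffold bound by S100a10 with annexin A2, had the most counts, 4140, and a log2 fold change of -0.40 (standard error 0.25).

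Similarity to S100a9 was also measured within the diets, as Pearson's r over the 10 mice between deviations of log2 CPM from the mean of each diet. The genes most like it among 2437 others were Anapc13 (r = 0.88), Stx7 (0.83), Gkap1 (0.82), Wwc2 (0.81) and Fam111a (0.80). Their log2 fold changes between the diets lay between -0.26 and 0.14. Only genes that passed the filter were searched, and of the neutrophil list only 2, Hp and Hdc, had passed it. The other neutrophil genes could not be found this way, so nothing is read from their absence here. S100a8 itself, measured the same way, had r = 0.56. Among pairs of members the highest values were 0.78 for S100a6 with S100a11 and 0.71 for S100a10 with S100a16. The points share their libraries and the scaling, and low counts weaken such a value, so these are descriptions of the 10 mice.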

How the data were processed

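Lung RNA of 10 mice (5 FO, 5 CO) was sequenced as single-end reads from TruSeq RNA v2 or riboZero libraries. Which mouse had which kit is not given in the sources used here. As deposited by the authors, the values are counts per gene symbol with no normalization, after alignment with STAR 2.4.0f1 to mm10, sorting with SAMtools 0.1.19 and counting with htseq-count, for which annotation and strand setting are not given in the sources used here. All 10 columns were used, and no pair of mice had identical counts.

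The diets were compared by the quasi-likelihood test of edgeR 4.0.16 (R 4.3.3), with TMM scaling and the default filter (count of at least 10, total of at least 15), calls were made at an unadjusted p under 0.05, the study's threshold, and adjusted p-values are Benjamini-Hochberg values over all genes tested. Genes that failed the filter were read from the same fit on all genes with any count. Log2 CPM used a prior count of 2. Intervals of log2 fold changes are 95% intervals of the fit, and those of shares are exact Clopper-Pearson intervals. Alternatives included DESeq2 1.42.0, other scaling, filters and each mouse left out, and fits were tested on simulated data. The planned test of the S100a9 share was left out because both genes were picked on the same contrast.

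The members and gene lists were chosen with earlier results of these data known. Named were the members, list genes called or most abundant, and the 5 genes most like S100a9, and 1 of the list genes is not reported here. S100a14, S100b, Tlr4, Alas2, Lyz2, Sftpc, Elane, Mpo, Clec4e, Cd68, Gp9, Anxa2, Lrg1 and the genes of the marker plot fall in part outside this rule and were picked with their values in view. The same holds for Ltf, Mmp9, Lcn2, Cxcr2, Plac8, F13a1 and Chil3. Gene spans are from RefSeq (GRCm38.p6), and transcript lengths, the longest with a RefSeq match, are from GENCODE M21 on the same genome.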

Additional observations from a re-analysis of the deposited data

Results flagged for a closer look

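Extreme mice were looked for in 32 sets of 5 mice (members, their shares and a few partners and markers). An extreme mouse whose gap to its neighbour exceeded 0.71 of the range, Dixon's limit, was found in 3 sets, and chance alone would give about 1.6. S100a11 was at 118.6 CPM in CO mouse 4, against 46.5 CPM in the next CO mouse. Fgf1 was at 136.5 CPM in the same mouse, against 55.1 CPM in the next. The S100a9 share of the S100a8 plus S100a9 counts was 14.3% in CO mouse 2, against 47.1% in the next lowest CO mouse.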

How the results depend on the processing

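S100a9 and S100a8 kept a positive log2 fold change in all alternatives run, from 1.65 to 2.68 for S100a9 (19 alternatives) and from 1.06 to 1.92 for S100a8 (17), with the lowest values without FO mouse 1. Both were picked for this difference in these same mice, so nothing is read from the kept sign. With at least 10 counts in every mouse neither was tested. The number of genes called, 71, was 36 with library size alone, 587 on genes with any count, 15 with at least 10 counts in every mouse, 138 with DESeq2 on genes with any count, and 54 to 154 with a mouse left out, the latter without FO mouse 2. Among the 8 other members the single call became 0 with at least 10 counts in every mouse, where S100a11 was not tested, and 0 with the replicate block, and lay between 0 and 1 with a mouse left out. The 0 calls among neutrophil genes became 4 on genes with any count and 2 with DESeq2 on them, and stayed between 0 and 0 with a mouse left out. S100a1 reversed to -0.60 with library size alone and to -0.0031 without CO mouse 3 (range with a mouse left out -0.0031 to 0.57), S100a4 to -0.40 and S100a13 to -0.28 with library size alone, S100a6 to 0.0075 without CO mouse 4 (range -0.30 to 0.0075), and S100a10 to 0.0047, 0.025 and 0.035 without FO mouse 2, CO mouse 1 and CO mouse 4 (range -0.32 to 0.035). None of these was called. The cause was not tested. The replicate numbers share no animal, and the deviations of same-numbered mice correlated at -0.12 on average (-0.41 to 0.03), with 0 of 10 mice most like their own number. With this block 55 genes were called, and the log2 fold change was 2.12 for S100a9, 1.31 for S100a8 and -0.73 for S100a11 (edgeR unadjusted p = 0.079). The block also ended the calls of Fgf1 (edgeR unadjusted p = 0.126), Ngp (0.399), Camp (0.140), Cd68 (0.109) and Gp9 (0.152) among genes with any count. Library size alone ended the calls of Retnlg (edgeR unadjusted p = 0.092), Alas2 (0.175), Ngp (0.060), Camp (0.065) and Cd68 (0.142) there. Mmp8, Gp9 and Fgf1 were still called under library size alone. The difference in the S100a9 share, 14.2 percentage points, lay between 7.03 and 17.5. With 45177 to 473254 counts outside Rn45s per mouse, most neutrophil genes were under the filter.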
